A study of Mus musculus with 12 samples.

Results

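Livers of 7-week-old mice were compared with livers of 2-week-old mice by their microRNA (miRNA) levels. The comparison used 6 of the 12 livers of the series, 3 at 7 weeks and 3 at 2 weeks, and all 355 mouse miRNA probes of the deposited table. The 7-week livers were from male C57Bl/6 mice aged 7 weeks, and the 2-week livers were from male C57Bl/6 mice aged 2 weeks. No treatment or engineered allele is given for either age. The other livers were from male mice of 3 weeks and from embryos of mixed sex at e15.5. Each liver carries a mouse number from 1 to 3 within its age and was measured on the nCounter mouse miRNA assay, which counts colour-coded probes bound to single miRNA molecules without amplification. Postnatal polyploidization of the mouse liver and its regulation by miR-122 are the subject the series title gives, so the comparison of 7 weeks with 2 weeks spans the time over which the liver becomes polyploid.

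Mature miRNAs are short RNAs that pair with messenger RNAs, mainly through a seed at bases 2 to 8, and lower their stability or translation. Members of a family share the seed and so share many targets, while members of a genomic cluster are cut from a common transcript. Hepatocytes of the young mouse are mostly diploid and dividing. Around weaning many of them stop dividing and become binucleate or polyploid. Blood formation leaves the liver during development, and fetal genes such as H19 are silenced after birth.

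The following sequences are those on which the results turn, since several miRNAs with the same seed changed to different degrees. They are mature mouse miRNAs from RefSeq (GRCm38.p6), written 5′ to 3′ with the seed in capitals. The miR-29 family held the only bright rises as deposited.
miR-29a: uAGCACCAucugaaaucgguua
miR-29b: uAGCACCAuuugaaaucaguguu
miR-29c: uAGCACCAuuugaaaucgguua
Counted from 1 at the 5′ end, miR-29a and miR-29c differ at 1 base (C10U, the base of miR-29a first). The gene of miR-29a lies at chr6:31062673-31062694 on the minus strand, that of miR-29c at chr1:195037600-195037621 on the plus strand, and miR-29b has a copy beside each of them.

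The let-7, miR-99 and miR-125 families are shown because the member of each that fell most comes from the same cluster on chromosome 17, within Spaca6.
let-7a: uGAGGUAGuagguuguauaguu
let-7c: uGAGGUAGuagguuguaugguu
let-7e: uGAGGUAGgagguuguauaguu
let-7i: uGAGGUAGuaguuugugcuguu
miR-99a: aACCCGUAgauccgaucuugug
miR-99b: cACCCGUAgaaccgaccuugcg
miR-125a-5p: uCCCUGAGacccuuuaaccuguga
miR-125b-5p: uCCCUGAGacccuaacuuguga
miR-99b (chr17:17830194-17830215), let-7e (chr17:17830366-17830387) and miR-125a-5p (chr17:17830817-17830840) lie in this order on the plus strand. let-7a and let-7e differ at 1 base (U9G), and let-7a and let-7c differ at 1 base (A19G). Cross-reaction between probes for such close sequences was not tested.

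The remaining sets are the miR-15/16, miR-130 and miR-17 families, in which members of a shared seed fell unequally, and the pair of probes with the largest falls among those that were above the floor in all 6 livers and were called on both scales.
miR-15a: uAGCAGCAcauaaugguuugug
miR-15b: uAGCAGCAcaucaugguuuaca
miR-16: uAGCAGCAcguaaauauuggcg
miR-130a: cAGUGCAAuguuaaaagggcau
miR-301a: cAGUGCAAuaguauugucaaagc
miR-93: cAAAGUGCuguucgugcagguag
miR-106b: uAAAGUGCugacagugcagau
miR-434-3p: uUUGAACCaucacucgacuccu
miR-335-5p: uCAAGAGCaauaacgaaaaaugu
miR-15b (chr3:69009775-69009796) lies within Smc4, miR-301a (chr11:87113054-87113076) within Ska2, miR-93 (chr5:138165574-138165596) and miR-106b (chr5:138165787-138165807) within Mcm7, and miR-335-5p (chr6:30741314-30741336) within Mest. miR-434-3p (chr12:109594565-109594586) belongs to the imprinted Dlk1-Dio3 locus.

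The deposited values are log2 signals, in which the lowest value of every liver, log2(0.001) or -9.97, was read as the floor, at or below background. The linear signal summed to between 236866 and 267914 in 7-week livers and to between 486743 and 618776 in 2-week livers. The mean log2 value of the 100 brightest probes was 1.48 lower at 7 weeks. Whether this lower signal lies in the livers or in the assay cannot be told from the deposited values, so counts of calls and most named changes are given as deposited and also after centring, that is after subtracting each liver's mean over its 100 brightest probes. The number of probes above the floor was 226, 248 and 173 in 7-week mice 1, 2 and 3, and all 2-week livers lay between the lowest and the highest of these, with at most 209. All of these are samples of whole liver, in which fewer cells of a type and less RNA per cell cannot be told apart.

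Most measurable miRNAs were lower at 7 weeks as deposited. Of 355 probes, 154 (43.4%) changed at an adjusted p below 0.05 in limma's moderated test with Benjamini-Hochberg adjustment over all probes: 26 (7.32%) were higher and the rest (36.1% of all probes) were lower in 7-week livers. A floor value in at least 1 of the 6 livers was seen for 212 probes, and the remaining ones are called fully measured here. Of the fully measured probes, 4 (2.8%) were higher and 92 (64.3%) were lower, with a median change of -1.26. After centring, 49 of 355 probes (13.8%) were higher and 58 (16.3%) were lower. Of the fully measured probes, 27 (18.9%) were then higher and 30 (21.0%) were lower, with a median of 0.22. All 30 probes lower after centring were lower as deposited too. Of the 27 higher after centring, 4 were higher, 15 were not called and 8 were lower as deposited. The count of 26 rises was not stable, and 22 of the 26 involved floor values. It was 53 without 7-week mouse 3, 46 without e15.5 mouse 1 and 13 to 17 with any other liver left out. With only the 6 livers in the fit it was 13.

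**Figure D1:**
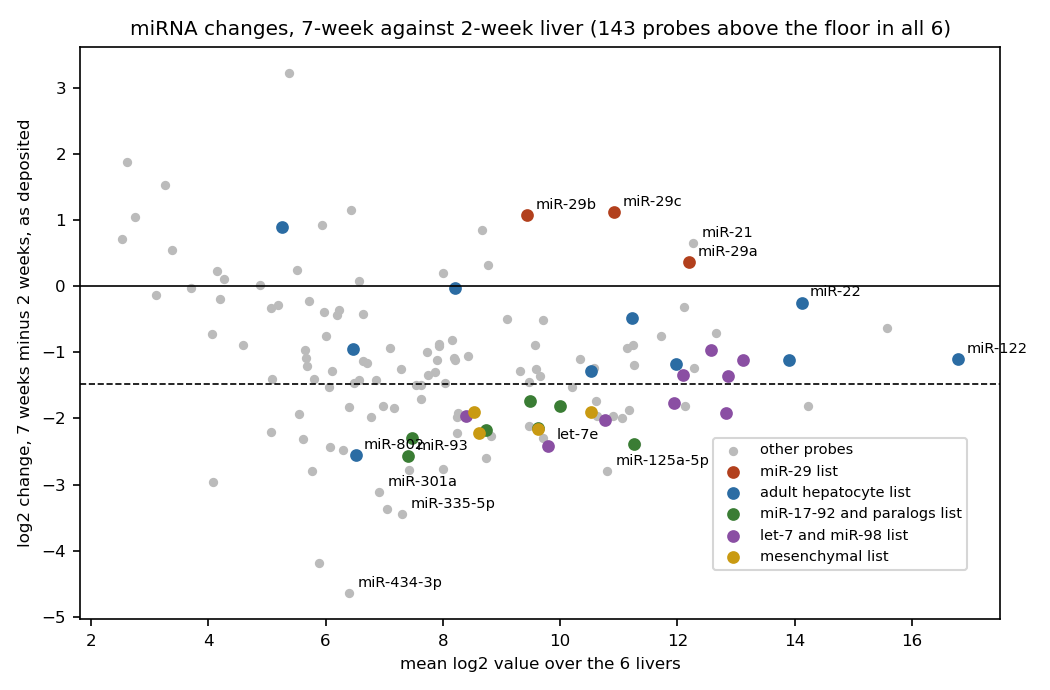
Change in log2 value, 7 weeks minus 2 weeks, as deposited (vertical axis), against the mean log2 value over the 6 livers (horizontal axis) for the fully measured probes. The solid line is no change and the dashed line the change of the 100 brightest probes (-1.48). The miR-29 probes lie above 0 among bright probes, and miR-434-3p and miR-335-5p lie lowest among those named.

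The miR-29 family rose. miR-29 is known for repressing messenger RNAs of collagens and other matrix proteins. miR-29c had 11.47, 11.43 and 11.54 in 7-week livers, against 10.42, 10.31 and 10.34 in 2-week livers. Every 7-week liver lay above every 2-week liver, by 2.18-fold on average (log2 change 1.12, SE 0.11, limma adjusted p = 8.2e-06). miR-29b had 9.82, 10.02 and 10.08 at 7 weeks and 8.96, 8.73 and 9.01 at 2 weeks, again without overlap (log2 change 1.07, SE 0.21, limma adjusted p = 0.0022). miR-29a, the brightest of the family, had 12.38, 12.25 and 12.52 at 7 weeks and 12.04, 12.09 and 11.93 at 2 weeks. Its rise was smaller (log2 change 0.36, SE 0.10, limma adjusted p = 0.0125), and its groups did not overlap either, but it was not called without the variance trend (adjusted p = 0.15). The 3 probes of this list thus made up 3 of the 4 rises among the fully measured probes. After centring the changes were 2.60 for miR-29c, 2.55 for miR-29b and 1.84 for miR-29a, and all of them were also called higher after scaling to total signal and after quantile normalisation. The family's summed share of the signal was 3.55 to 3.83% in 7-week livers and 0.982 to 1.24% in 2-week livers.

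The members of the family did not rise equally. Within a liver, the log2 value of miR-29c minus that of miR-29a was -0.91, -0.82 and -0.98 at 7 weeks and -1.62, -1.78 and -1.60 at 2 weeks. Such a difference carries the efficiency of both probes, so only its shift between ages is read; it is free of any scaling of a whole liver. The shift was 0.76, with no overlap between ages. miR-29b minus miR-29c averaged -1.51 ± 0.13 at 7 weeks and -1.46 ± 0.13 at 2 weeks (SD, n = 3 each), and here the ages overlapped. Against miR-122, the brightest liver miRNA, miR-29c shifted by 2.22 and miR-29a by 1.46, both without overlap.

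The fourth rise was miR-142-5p, a miRNA of blood cells. It had 6.29, 6.58 and 6.33 in 7-week livers and 5.74, 5.80 and 4.91 in 2-week livers. The groups did not overlap, but the rise (log2 change 0.92, SE 0.32, limma adjusted p = 0.0397) was lost in 6 of the 12 fits that left out 1 liver, with adjusted p up to 0.129. Without 2-week mouse 3, 3-week mouse 3, e15.5 mouse 3 or any of the 7-week mice it no longer passed, nor did it with the mouse number as a block (adjusted p = 0.065), with only the 6 livers (0.065) or without the variance trend (0.057). After centring its change was 2.40 and was called in all 12 such fits.

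**Figure D2:**
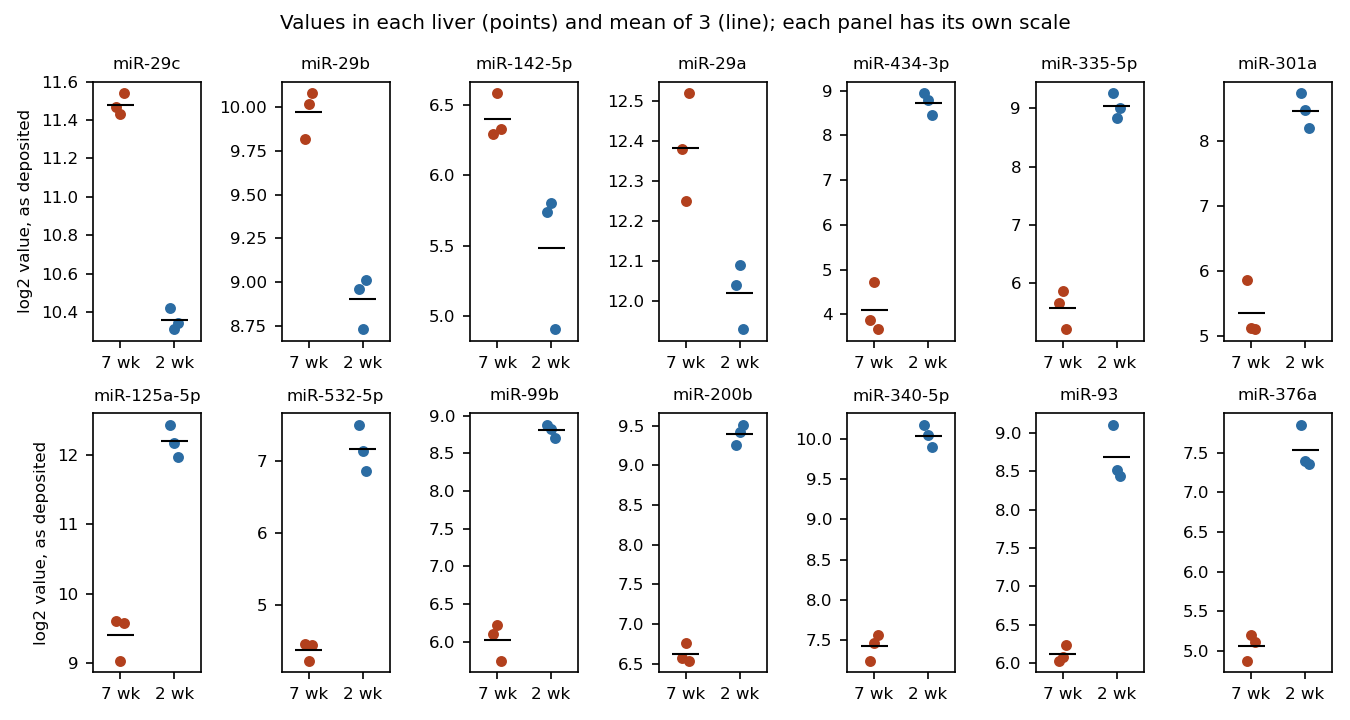
Log2 values as deposited (vertical axes, scaled per panel) in each 7-week liver (left, red) and each 2-week liver (right, blue) for the 4 rises and the 10 largest falls that were called both as deposited and after centring. Points are livers and lines are means of 3. The ages do not overlap in any panel, which was also a condition for choosing the probes.

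The largest called fall among the fully measured probes was that of miR-434-3p. It had 3.87, 4.72 and 3.67 in 7-week livers and 8.94, 8.79 and 8.45 in 2-week livers, a 25-fold lower level (log2 change -4.64, SE 0.31, limma adjusted p = 5.4e-07). miR-335-5p, which lies within the imprinted gene Mest, had 5.66, 5.87 and 5.21 at 7 weeks and 9.26, 8.84 and 9.0 at 2 weeks (log2 change -3.45, SE 0.22, limma adjusted p = 3.3e-07). All 7-week livers were far below all 2-week livers for both probes, and their changes after centring were -3.16 and -1.97. Separate ages and a call on both scales were conditions for choosing them. miR-335-5p can be set against miR-29a, which lies on the same chromosome: their within-liver difference shifted by -3.82 between ages.

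The other large falls called on both scales had several host genes. miR-301a had 5.86, 5.12 and 5.11 in 7-week livers and 8.74, 8.48 and 8.20 in 2-week livers, 8.65-fold lower. Its host Ska2 encodes a protein that ties chromosomes to the spindle. miR-93, hosted with miR-106b and miR-25 by Mcm7, a subunit of the replicative helicase, had 6.03, 6.08 and 6.24 at 7 weeks and 9.11, 8.52 and 8.44 at 2 weeks, 5.95-fold lower. miR-340-5p, within Rnf130, had 7.25, 7.47 and 7.57 at 7 weeks and 10.17, 10.04 and 9.89 at 2 weeks. After centring their changes were -1.63, -1.09 and -1.12. Separate ages and a lower call after centring were conditions for choosing the 10 largest falls, so neither is a further result. miR-532-5p had 4.46, 4.23 and 4.44 at 7 weeks and 7.5, 7.13 and 6.86 at 2 weeks (log2 change -2.79, and -1.31 after centring), but its fall was not called after quantile normalisation (limma adjusted p = 0.132).

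The miR-17-92 cluster and its paralogs promote cell cycle entry and are high in dividing cells. All 7 of their probes were lower as deposited, against 36.1% of all 355 probes and 64.3% of the fully measured ones, with a list median of -2.17. None was higher under any scaling. After centring 5 of 7 were lower with a median of -0.69, against 21.0% of the fully measured probes. After scaling to total signal 7 were lower, where 20% of all probes were lower and 10.7% higher. After quantile normalisation 4 were lower, where 16.3% of all probes were lower and 9.86% higher. The shares on these last scales include probes with floor values, whereas all 7 of the list were fully measured. The probe shared by miR-20a and miR-20b was the brightest of them, with 10.14, 9.88 and 10.19 in 7-week livers and 12.51, 12.46 and 12.39 in 2-week livers. Its livers fell into separate ranges, 5.22-fold apart (log2 change -2.38, SE 0.09, limma adjusted p = 9.4e-09; after centring -0.91). miR-106b had 6.48, 6.18 and 6.31 at 7 weeks and 8.77, 8.33 and 8.75 at 2 weeks, and was lower by -0.81 after centring. miR-25, from the same host as miR-93 and miR-106b, fell less (-1.82), so that miR-93 minus miR-25 shifted by -0.75 and miR-106b minus miR-25 by -0.47 within livers, without overlap. The summed share of the list was 1.04 to 1.21% of the signal in 7-week livers and 2.24 to 2.41% in 2-week livers.

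The let-7 family, which restrains growth genes and is high in mature tissues, was lower in all 9 probes as deposited, against 64.3% of the fully measured probes (list median -1.77, against -1.26). After centring 3 of 9 were lower, against 21.0%, and none was higher, with a median of -0.29 against 0.22. let-7e fell most, with 8.55, 8.64 and 8.60 in 7-week livers against 11.14, 10.97 and 10.91 in 2-week livers (5.32-fold lower; after centring -0.93). let-7i and let-7d were the other members lower after centring, by -0.54 and -0.44. let-7c had 12.02, 12.12 and 12.10 at 7 weeks and 12.71, 13.18 and 13.27 at 2 weeks, a change of -0.97 as deposited that stood at 0.51 after centring and was not called there.

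Within the chromosome 17 cluster miR-125a-5p, miR-99b and let-7e fell to a similar degree, while the 3p arm of miR-125a did not fall. miR-125a-5p had 9.60, 9.03 and 9.57 in 7-week livers and 12.44, 12.18 and 11.98 in 2-week livers (log2 change -2.8, SE 0.20, limma adjusted p = 9.4e-07; after centring -1.32). miR-99b had 6.11, 6.22 and 5.75 at 7 weeks and 8.88, 8.83 and 8.71 at 2 weeks (log2 change -2.78, SE 0.22, limma adjusted p = 1.9e-06; after centring -1.30). The ages were apart for both. Their relatives of the same seed fell less: miR-125b-5p changed by -1.19 and miR-99a by -1.36, and neither was called after centring. Within livers, miR-125a-5p minus miR-125b-5p was -0.95, -1.62 and -1.22 at 7 weeks and 0.04, 0.47 and 0.53 at 2 weeks, a shift of -1.61. miR-99b minus miR-99a shifted by -1.43 and let-7e minus let-7c by -1.44, likewise without overlap. miR-125a-5p minus let-7e and miR-99b minus let-7e, pairs within the cluster, had smaller shifts of -0.39 and -0.37, also without overlap. With 3 livers against 3, an exact permutation test of such a difference cannot give a p below 0.1. All such pairs were chosen after their values were seen, and how often any 2 probes part without overlap is not given here. Of the fully measured probes alone, 28.7% were lower and 34.3% higher without overlap after centring. The absence of overlap is therefore common, and the size of each shift is what is described.

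Members of a shared seed also differed in other families. miR-15b minus miR-16 was -2.10, -2.51 and -2.34 in 7-week livers and -0.88, -0.45 and -0.66 in 2-week livers. miR-15b was lower under each scaling (-1.97 as deposited, -0.49 after centring), while miR-16 was not called as deposited (-0.31, limma adjusted p = 0.212) and was higher after centring (1.17). The pair shares a locus in Smc4, a condensin subunit that compacts chromosomes, but miR-16 has a further copy beside miR-15a on chromosome 14, and the probe cannot separate them. miR-301a minus miR-130a shifted by -0.72 and miR-30a minus miR-30d by -0.73, both without overlap. Over all 6 probes of the miR-15/16 list, 4 were lower as deposited and 0 higher, a share close to the 64.3% of the fully measured probes that were lower. After centring 1 was lower and 2 were higher, against 21.0% and 18.9% of the fully measured probes.

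**Figure D3:**
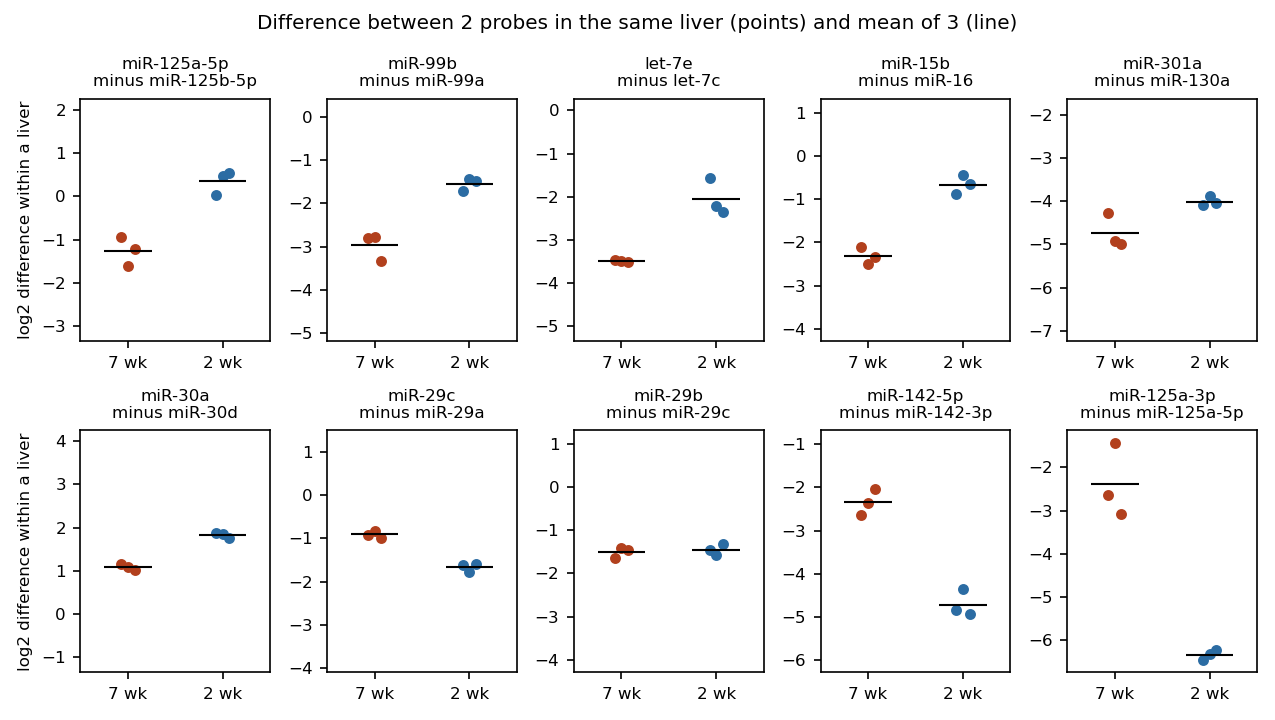
Log2 value of one probe minus that of another in the same liver (vertical axes, each spanning the same range), for 7-week livers (left, red) and 2-week livers (right, blue). Points are livers and lines are means of 3. Each pair differs between ages without overlap except miR-29b minus miR-29c. The pairs were chosen after their values were seen.

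The arms of a hairpin also parted. The arms miR-142-5p and miR-142-3p are cut from the same precursor, yet miR-142-3p had 8.93, 8.95 and 8.36 in 7-week livers and 10.58, 10.16 and 9.85 in 2-week livers, lower by -1.45 (limma adjusted p = 0.00014; 0.03 and not called after centring). The 5p arm minus the 3p arm was therefore -2.64, -2.37 and -2.03 at 7 weeks and -4.84, -4.36 and -4.93 at 2 weeks, a shift of 2.37. miR-125a-3p had 6.95, 7.60 and 6.50 at 7 weeks and 5.98, 5.86 and 5.75 at 2 weeks, so that every 7-week liver was above every 2-week liver while its partner miR-125a-5p fell. The 3p arm was not called (log2 change 1.15, SE 4.71, limma adjusted p = 0.974), with floor values in 1 liver of 3 weeks and 1 of e15.5 in the pooled spread; with only the 6 livers its adjusted p was 0.0395. The arms of miR-126, miR-199a and miR-423 were also above the floor in all 6 livers, and their differences shifted by -0.16, -0.06 and -0.13, with overlap between ages.

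The Dlk1-Dio3 locus, an imprinted region with one of the largest miRNA clusters of the mouse genome, expresses its miRNAs from the maternal chromosome, and they are high before birth. Of its 51 probes, 50 were placed at chr12:109563710-109743784. The number above the floor was 19, 22 and 10 in 7-week livers and 31, 29 and 25 in 2-week livers, and the summed linear signal was 1060 to 1260 at 7 weeks and 7000 to 9440 at 2 weeks. As deposited 24 of the 51 were lower and 1 was higher, against 36.1% and 7.32% of all 355 probes. After centring 16 were lower and 3 were higher, against 16.3% and 13.8% of all probes. Of the 24 probes of the locus above the floor in all 2-week livers, 11 were at the floor in every 7-week liver. Among all 355 probes this pattern was also seen for 24 in total. Its share among all probes above the floor in the 2-week livers is not given here. miR-376c, at the floor in every 7-week liver, had 9.19, 8.96 and 8.73 at 2 weeks. miR-376b, miR-411 and miR-410 showed the same, with means of 8.09, 7.91 and 7.84 at 2 weeks. miR-136 was at the floor in 7-week mice 1 and 2 and stood at 1.30 in mouse 3, against 11.06, 10.75 and 10.37 in 2-week livers.

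Not every member of the locus was at or near the floor at 7 weeks. miR-154 had 9.82, 9.71 and 9.83 in 7-week livers and 11.09, 10.65 and 10.92 in 2-week livers. It was lower as deposited (-1.10) and higher after centring (0.38, limma adjusted p = 0.0427, lost in 5 of 12 fits that left out 1 liver), so its direction depended on the scale. It lies between miR-485 and miR-377, and miR-377 had 10.01, 9.60 and 9.40 at 2 weeks but was at the floor in 7-week mice 1 and 3 and at 2.21 in mouse 2. miR-376a, a neighbour of miR-376b and miR-376c, had 4.88, 5.20 and 5.11 at 7 weeks and 7.85, 7.40 and 7.36 at 2 weeks, and was lower after centring too (-1.0). miR-543 had 5.95, 6.04 and 6.14 at 7 weeks and 6.28, 6.52 and 6.40 at 2 weeks, slightly lower without overlap. It was not called as deposited (-0.36, limma adjusted p = 0.37) and was called higher after centring (1.12), so its direction also depended on the scale. The higher probe was miR-654-3p, with 4.33, 4.77 and 0.24 at 7 weeks and the floor in all 2-week livers.

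**Figure D4:**
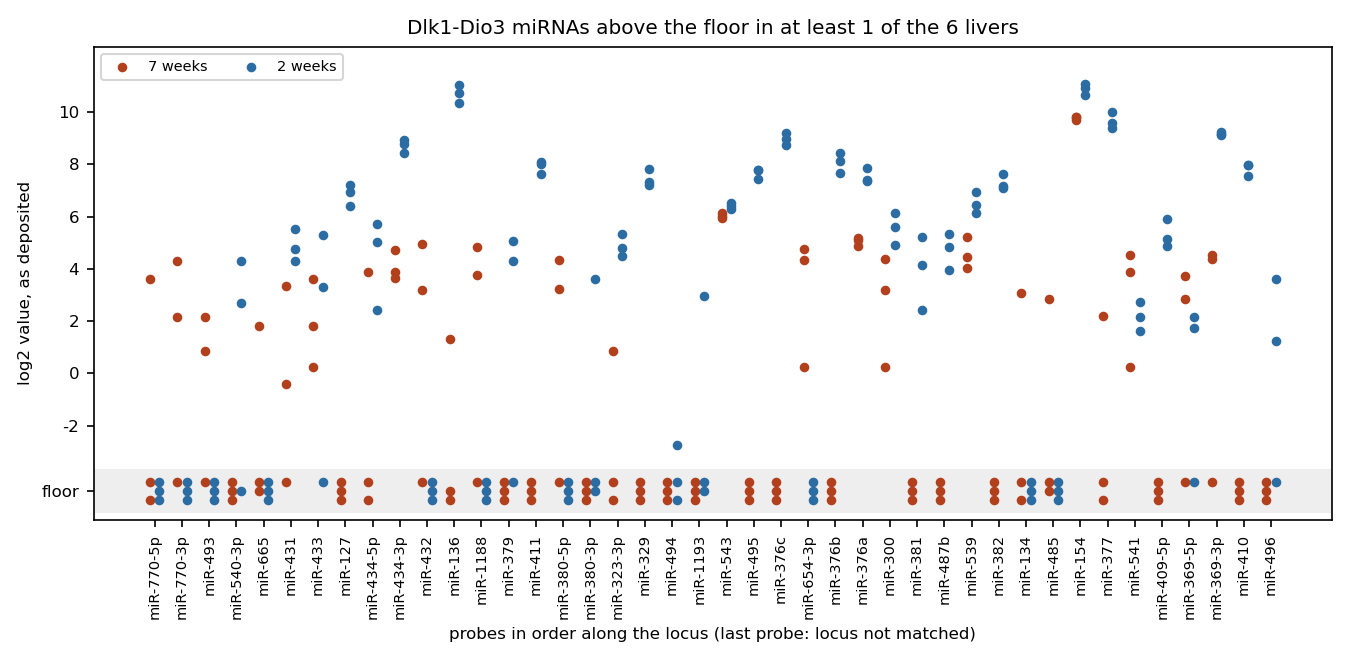
Log2 values as deposited (vertical axis) of the Dlk1-Dio3 probes that were above the floor in at least 1 of the 6 livers, in their order along the locus, for 7-week livers (left of each position, red) and 2-week livers (right, blue). Points in the grey band are livers at the floor; miR-154 stays bright at both ages, while miR-376c, miR-411 and miR-410 lie in the band in every 7-week liver.

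A list of other imprinted loci, drawn up by miRNA name, held 24 probes, of which RefSeq places miR-466k, miR-467f and miR-467g outside those loci. As deposited 4 of the 24 were lower, against 36.1% of all 355 probes, and 3 were higher, against 7.32%. The counts were the same after centring, against 16.3% lower and 13.8% higher among all probes, so the list as a whole was lower no more often than other probes as deposited and is described by single members. miR-675 is cut from H19, a maternally expressed growth restraint that the liver silences after birth. miR-675-3p was at the floor in every 7-week liver and had 7.09, 6.91 and 6.6 at 2 weeks. miR-675-5p was called higher, with 4.4 and 4.43 in 7-week mice 1 and 2 and the floor in mouse 3 and in all 2-week livers; its call (limma adjusted p = 0.0397) was lost in 10 of 12 fits that left out 1 liver. The remaining lower probes were miR-335-5p, miR-296-3p and miR-669f. miR-669f, of the cluster within Sfmbt2, had 6.22, 6.85 and 6.93 at 2 weeks and was at the floor in every 7-week liver.

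The liver identity of the samples was clear from the hepatocyte markers. miR-122, the dominant miRNA of hepatocytes, had 16.13, 16.24 and 16.34 in 7-week livers and 17.73, 17.06 and 17.22 in 2-week livers. It was lower as deposited in every 7-week liver (log2 change -1.10, SE 0.19, limma adjusted p = 0.00068; exact permutation p = 0.1, the smallest that 3 against 3 allows). After centring it was 0.38 higher and not called (limma adjusted p = 0.106), and after scaling to total signal it differed by -0.01. Its share of the summed signal was 30.4, 31.7 and 31.0% at 7 weeks and 35.1, 28.0 and 30.8% at 2 weeks, so the ages overlapped on this scale. It was the brightest probe at both ages.

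The 10 adult hepatocyte probes did not move as 1 block. All were fully measured. As deposited 5 were lower and 0 higher, against 64.3% and 2.8% of the fully measured probes. After centring 4 were higher and 0 lower, against 18.9% and 21.0% of them, and the same 4, miR-22, miR-192, miR-193 and miR-365, were higher after scaling to total signal and after quantile normalisation. miR-22 had 13.86, 13.95 and 14.18 in 7-week livers and 14.56, 14.18 and 13.99 in 2-week livers, which overlapped as deposited; its share of the signal averaged 6.55 ± 0.33% at 7 weeks and 3.66 ± 0.34% at 2 weeks (SD, n = 3 each). Within livers miR-22 minus miR-122 shifted by 0.85 without overlap. miR-192 minus miR-194, which share a cluster, shifted by 0.70. miR-802, a liver-enriched miRNA, was the member that fell most, with 5.20, 5.30 and 5.21 at 7 weeks and 7.30, 7.70 and 8.37 at 2 weeks (5.86-fold lower; after centring -1.07, limma adjusted p = 0.0564). miR-21, of growing and injured tissue, overlapped as deposited with 12.21, 12.88 and 12.70 at 7 weeks and 12.47, 11.81 and 11.56 at 2 weeks. Its share of the signal was 2.00 to 3.08% at 7 weeks and 0.608 to 0.914% at 2 weeks, and after centring it was called higher (2.13). miR-34c, a target gene of p53, likewise was called only after rescaling (0.32 as deposited, limma adjusted p = 0.132; 1.80 after centring).

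**Figure D5:**
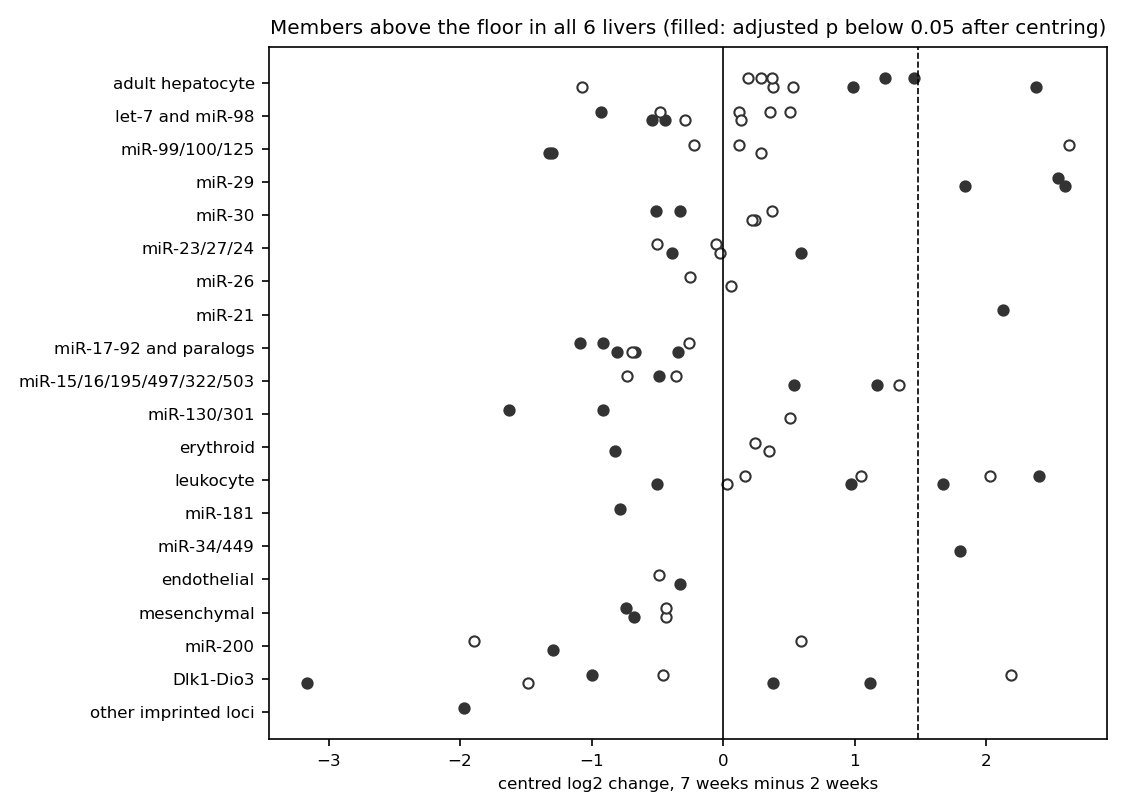
Centred log2 change, 7 weeks minus 2 weeks (horizontal axis), of the members of each list (rows) that were above the floor in all 6 livers. Filled points had an adjusted p below 0.05 after centring; the solid line is 0 and the dashed line, at 1.48, marks no change as deposited. The miR-29 points lie right of the dashed line and the miR-17-92 points left of 0.

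Markers of the other cells of the liver moved too. The miR-200 family of epithelial cells, which in liver marks bile ducts and represses the Zeb factors, had miR-429 at the floor in every 7-week liver and at 9.16, 9.20 and 9.31 in 2-week livers. Its neighbour miR-200b had 6.57, 6.76 and 6.54 at 7 weeks and 9.25, 9.42 and 9.51 at 2 weeks (6.83-fold lower; after centring -1.29), without overlap. miR-200a, from the same cluster on chromosome 4, had 5.61, 5.72 and 4.74 at 7 weeks and 8.76, 8.84 and 8.57 at 2 weeks. It was not called (log2 change -3.37, SE 3.03, limma adjusted p = 0.429; after centring -1.89) with all 12 livers in the fit, where 2 of 3 e15.5 livers were at the floor, and was called with only the 6 livers (adjusted p = 0.00087). Of the 5 probes 2, miR-429 and miR-200b, were lower as deposited and after centring, against 36.1% and 16.3% of all probes. miR-141 was at the floor in each of the 6 livers. miR-200c was above the floor in each of the 6 livers and was not called as deposited or after centring.

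The mesenchymal list (miR-143, miR-145, the miR-199a arms and miR-214) was lower in 4 of 5 probes as deposited and in 2 of 5 after centring, the miR-199a arms, which are miRNAs of stellate cells and fibroblasts. The shares of the fully measured probes that were lower were 64.3% as deposited and 21.0% after centring, and these also apply to the erythroid and leukocyte lists, whose probes were all fully measured. miR-199a-3p had 8.57, 8.45 and 8.61 in 7-week livers and 10.69, 10.74 and 10.68 in 2-week livers. The list's share of the signal was 0.584 to 0.639% at 7 weeks and 1.08 to 1.29% at 2 weeks. Endothelial miR-126-3p had 13.30, 13.24 and 13.43 at 7 weeks and 15.35, 15.13 and 14.94 at 2 weeks, and was lower after centring by -0.33. The erythroid miRNAs were lower in 3 of 3 probes as deposited and in 1 of 3, miR-144, after centring, and in 0 after quantile normalisation. Within livers miR-144 minus its cluster neighbour miR-451 shifted by -1.06. Among 8 leukocyte probes 4 were lower and 1 higher as deposited. After centring 1 was lower (miR-223, -0.50, not called after quantile normalisation) and 3 were higher (miR-142-5p, miR-146a and miR-155). The lower calls were no more frequent than among the fully measured probes on either scale. The higher calls stand against 2.8% of the fully measured probes as deposited and 18.9% after centring. Muscle markers and pluripotent cell miRNAs were at the floor in each of the 6 livers, and the pancreas list summed to a linear signal of at most 8.39 at 7 weeks and 0.0 at 2 weeks. The part of changing cell numbers in the results above was not tested.

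Presence and absence added to this picture. Of the 355 probes, 24 were at the floor in every 7-week liver and above it in all 2-week livers, with means of 2.8 to 9.22 at 2 weeks. Dlk1-Dio3 members made up 51 of the 355 probes and 11 of these 24. The reverse, the floor in every 2-week liver only, was seen for 8 probes, all dim, with means of 2.70 to 4.53 at 7 weeks. The brightest of the 8 was miR-1942, with 4.68, 4.66 and 4.26, followed by miR-764-5p, miR-466k, miR-1195 and miR-683. No fold is given for any of these. Of the 26 rises as deposited, 22 involved floor values, and in 9 of these 7-week mouse 3, which had the most probes at the floor, was itself at the floor.

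At 3 weeks most probes called on both scales had intermediate means. The 3-week mean lay between those of 2 and 7 weeks for all 4 rises and for 29 of the 30 falls as deposited, and for 24 of the 30 after centring. Livers of 2 and 3 weeks did not overlap for 2 of the 4 rises and for 24 of the 30 falls. These probes were chosen for differing between 2 and 7 weeks, and no share over all fully measured probes was computed. The mean of the 100 brightest probes was also intermediate in every 3-week liver. An intermediate mean as deposited is therefore not specific to these probes. miR-29c stood at 10.42, 10.31 and 10.34 at 2 weeks, 11.11, 11.12 and 11.17 at 3 weeks and 11.47, 11.43 and 11.54 at 7 weeks, with separate ranges at each age. miR-434-3p had 6.22, 5.72 and 6.65 at 3 weeks, about midway. miR-335-5p had 8.40, 8.42 and 8.39 at 3 weeks and so had made most of its fall later: it changed by -0.63 from 2 to 3 weeks (limma adjusted p = 0.0849) and by -2.82 from 3 to 7 weeks (adjusted p = 2.2e-06). miR-802 did not follow this order, with 8.99, 8.88 and 8.85 at 3 weeks, above both other ages. miR-122 had 17.40, 17.49 and 17.63 at 3 weeks, and its deposited fall lay between 3 and 7 weeks (-1.27, limma adjusted p = 0.00029; -0.15 and not called after centring). These steps share the livers of the overall comparison.

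Some probes with ages apart were not called. Of the fully measured probes, 107 (74.8%) were lower and 6 (4.2%) higher without overlap between ages as deposited, and 41 (28.7%) and 49 (34.3%) after centring. Of those separated as deposited, 18 were not called, and 12 of the 18 had floor values at 3 weeks or e15.5. With only the 6 livers in the fit 13 of the 18 were called, a share close to the 70.6% of all fully measured probes called there. Why the 18 were not called was not tested.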

How the data were processed

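Total RNA of 12 C57Bl/6 livers was extracted with Trizol, per the labels' protocols, and run on the nCounter mouse miRNA assay. The authors deposited log2 values for 355 mouse probes; the submitters' processing notes name Partek 6.6, and the background step and the scaling of livers are not given in the sources used here. Raw counts were not used here, so the total linear signal stands in place of depth and no counting intervals were computed. The lowest value of each column, log2(0.001), was read as the floor. A mean for each age was fitted over all 12 livers with limma 3.58.1 in R 4.3.3 (lmFit, eBayes with trend), and the contrast 7 weeks minus 2 weeks was tested two-sided with Benjamini-Hochberg adjustment over 355 probes at 0.05. Fold changes are powers of 2 of these differences. Where all 3 livers of an age are at the floor there is no spread at that age, and the adjusted p carries no measure of precision. Centring subtracted each liver's mean over the 100 probes brightest over all livers, of which 1 has floor values. The steps were tested on simulated data.

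Members, lists and tests were chosen with earlier results of these data known, so a list's count is not independent evidence of its direction. Named were miR-122; the 4 rises and 10 largest falls among probes above the floor in all 6 livers, without overlap and called both as deposited and after centring; up to 5 probes per direction that were at the floor at 1 age only; members of the lists; and the 10 brightest probes at 7 weeks. miR-136, miR-377, miR-154, miR-543, miR-654-3p, let-7c, miR-25, miR-22, miR-192, miR-193, miR-365, miR-146a, miR-155, miR-675-3p, miR-675-5p, miR-669f, miR-296-3p, the arm pairs and the within-liver differences were chosen after their values were seen. Probe names were matched to RefSeq miRNAs (GRCm38.p6): 283 probes had a locus, 72 did not, and 6 probes name 2 miRNAs each; names without an arm were given the commonly dominant arm. Each label gives a mouse number, and p-values measure the spread between these livers. Same-numbered livers of 7 and 2 weeks correlated by -0.000418, 0.239 and 0.227 in their deviations from the age means. Livers of different numbers correlated by -0.318 to 0.197. These few correlations cannot settle whether the numbers pair livers, and the numbers were not taken to do so. Alternatives were other scalings, pseudocounts of 1 and 10, the upper 50% of probes, probes above the floor in all 6 livers, no variance trend, only the 6 livers, a block for the mouse number, and each liver left out in turn; centring combined with leaving out a liver, with the block or with probes above the floor was added after seeing the data. Figures were drawn with matplotlib 3.10.9.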

Additional observations from a re-analysis of the deposited data

How the results depend on the processing

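The scale set the direction of a minority of the named probes. Of 92 compared, the sign reversed for 21 after centring on the 100 brightest probes. It reversed for 7 after scaling to total signal and for 15 after quantile normalisation. The 26 higher probes and the lower ones (36.1% of all) became 49 and 58 after centring on the 100 brightest probes, 38 and 71 after scaling to total signal, 35 and 58 after quantile normalisation, and 49 and 55 after centring on the median of probes measured in all 12 livers. Higher probes numbered 15 with log2(linear + 1), 13 with log2(linear + 10), 4 among the upper 50% of probes, 4 among probes above the floor in all 6 livers and 13 with only the 6 livers; the lower count stayed within 1.5 times of its value under these. Leaving out each liver gave 13 to 53 higher and 113 to 135 lower probes. The higher count was 53 without 7-week mouse 3, 46 without e15.5 mouse 1 and 13 to 17 otherwise. After centring, leaving out each liver gave 33 to 90 higher (90 without e15.5 mouse 1) and 55 to 63 lower. Centring with only the probes above the floor in all 6 livers gave 27 and 32. With the mouse number as a replicate block 16 probes were higher and 122 lower (44 and 59 after centring). The numbers were not taken to pair these livers. miR-122 changed by -1.24 to -0.90 when a liver was left out, by -0.01 after scaling to total signal and by 0.00 after quantile normalisation, which fixes the brightest probe, and turned to 0.38 and 0.39 after the 2 centrings.

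Some named probes with a change below 0 as deposited, called or not, had values above 0 under other scalings. Among them miR-16 and miR-22 were not called as deposited and were called higher after centring. After centring on the 100 brightest probes these were 0.19 for miR-101b, 0.29 for miR-194, 0.37 for miR-148a, 0.12 for miR-99a, 0.29 for miR-125b-5p, 0.24 for miR-30b, 0.22 for miR-30d, 0.59 for miR-23a, 0.54 for miR-15a, 1.17 for miR-16, 0.51 for miR-130b, 0.24 for miR-451, 0.35 for miR-486, 0.03 for miR-142-3p, 0.17 for miR-150, 0.84 for miR-720, 1.23 for miR-22, 0.36 for let-7g, 0.77 for miR-1937a+miR-1937b and 0.12 for let-7a. After centring on the median they were 0.20, 0.31, 0.39, 0.14, 0.30, 0.25, 0.24, 0.61, 0.56, 1.18, 0.52, 0.25, 0.37, 0.04, 0.19, 0.85, 1.24, 0.37, 0.78 and 0.13 for the same probes in that order. After quantile normalisation they were 0.26 for miR-101b, 0.15 for miR-99a, 0.20 for miR-125b-5p, 0.48 for miR-30b, 0.19 for miR-30d, 0.55 for miR-23a, 0.19 for miR-24, 0.44 for miR-15a, 0.72 for miR-130b, 0.63 for miR-486, 0.09 for miR-142-3p, 0.29 for miR-150, 0.55 for miR-22, 0.05 for let-7g and 0.36 for miR-1937a+miR-1937b. After scaling to total signal they were 0.20 for miR-23a, 0.15 for miR-15a, 0.78 for miR-16, 0.12 for miR-130b, 0.45 for miR-720, 0.84 for miR-22 and 0.38 for miR-1937a+miR-1937b. These follow from the lower bright signal at 7 weeks, whose cause was not tested. The 3 livers per age and the dim probes near the floor limit the precision.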
